A study of Sus scrofa with 9 samples.

Results

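Tooth germs of the mandibular deciduous molar Dm3 of miniature pigs were compared between embryonic day 40 (E40, cap stage) and embryonic day 60 (E60, late bell stage). The comparison covered 11089 genes of the 34580 rows of the expression table, namely those with a symbol not starting with LOC and an FPKM (fragments mapped to the gene per kilobase of exon, relative to all mapped fragments of the library) of at least 1 in at least 2 of the 6 E40 and E60 libraries. With the LOC rows, 18974 rows passed that filter and entered the test. The series holds 3 libraries for each of 3 stages, E40, E50 and E60, and the E50 libraries were used here only in an alternative fit. All germs came from untreated fetuses of timed pregnancies, taken by cesarean section from sows under ketamine and xylazine, and whole germs were dissected, so that epithelium and mesenchyme were sequenced together. Strain and fetal sex are not given, and the study's methods speak of biological replicates without saying whether the libraries of a stage came from separate fetuses or litters, so p-values measure the spread between these libraries, which may in part be technical.

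At the cap stage the enamel organ is a folded epithelium over a condensed dental papilla, and a signalling centre, the enamel knot, sits at its tip. By the late bell stage the inner enamel epithelium differentiates into ameloblasts, which secrete enamel proteins, and the facing papilla cells become odontoblasts, which lay down a collagen matrix that mineralizes as dentin. Stratified oral epithelium lies above the germ and skeletal muscle lies near it in the jaw.

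The depth differed strongly within E60. Whole reads recovered from the steps of the FPKM values came to between 938527 and 1323530 for the E40 libraries, to 16124836 for E60 library 1, and to 1380822 and 1760356 for E60 libraries 2 and 3. The rows LOC102158401 and TEX14 together took between 26.8% and 32.8% of the reads of each E40 library, 50.5% and 34.7% of those of E60 libraries 2 and 3, and 0.0440% of those of E60 library 1. Pearson's r across genes was taken on log2(FPKM + 0.1), with FPKM scaled as described below. It lay between 0.766 and 0.892 for the 10 pairs of the 5 shallow libraries. For the 5 pairs of E60 library 1 with these shallow ones it lay between 0.504 and 0.735. E60 libraries 2 and 3 thus stood with E40 in depth and in these rows, and E60 library 1 stood apart. The test was therefore run over all 6 libraries and over the 5 without E60 library 1, and for the genes the results turn on the difference from E40 is also given for each set of E60 libraries, with no test for E60 library 1. A log2 fold change with no other mention is over the 6 libraries. Values are FPKM divided by a size factor per library, the median over genes of its ratio to the geometric mean of the 6 libraries, and are called scaled FPKM here. Log2 fold changes are E60 minus E40 on log2(scaled FPKM + 0.1), a scale on which changes of low genes come out too small.

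From E40 to E60 the enamel matrix genes AMBN, AMEL and ENAM and the dentin genes PHEX and DMP1 rose, and the oral mucosa keratins KRT13, KRT4 and KRT15 and 6 of 15 measured muscle genes fell. With limma and Benjamini-Hochberg adjustment, 25 genes were higher at E60 (0.225% of those tested) and 22 were lower (0.198%) over the 6 libraries, where a call needed an adjusted p below 0.05 together with a difference of 1 or more on the log2 scale. Over the 5 libraries 39 were higher (0.352%) and 33 were lower (0.298%), and without scaling these became 31 and 75, with a shift of the median of all genes from -0.02 to -0.45. The fits shared 20 higher and 21 lower genes. All 47 genes called over the 6 libraries differed from E40 by at least 1 on the log2 scale, in the same direction, both in the deep E60 library 1 and in the shallow E60 libraries. The 6-library test includes E60 library 1 and favours genes on which the E60 libraries agree, so this agreement is no separate support. Of all genes tested, 751 (6.77%) were at least 1 higher and 599 (5.4%) at least 1 lower in both sets. The number of calls depended on which library was left out. Leaving out E40 library 1, 2 or 3 left 3, 3 or 5 calls, leaving out E60 library 2 or 3 left 33 or 8, and leaving out E60 library 1 gave 72. ENAM and KRT4 were called in each of these fits.

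Genes were also described by a gap, without a test: a gene was counted where every E60 library lay at least 2-fold above, or below, every E40 library in scaled FPKM + 0.1. This held for 233 genes above (2.1% of 11089) and 161 below (1.45%), and without scaling for 123 and 260. The stages did not overlap at all for 1478 higher genes (13.3%) and 1259 lower genes (11.4%). Of the 11089 genes, 1879 were at least 1 higher and 2067 at least 1 lower in E60 library 1 alone, against 213 and 271 in E60 libraries 2 and 3 alone and 751 and 599 in both. The sets of E60 libraries moved in opposite directions by at least 1 for 163 genes. As a background for the lists below, 769 genes were higher (6.93%) and 531 lower (4.79%) at an unadjusted p under 0.05, and limma-voom on the recovered reads called 29 higher (0.262%) and 63 lower (0.568%).

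**Figure D1:**
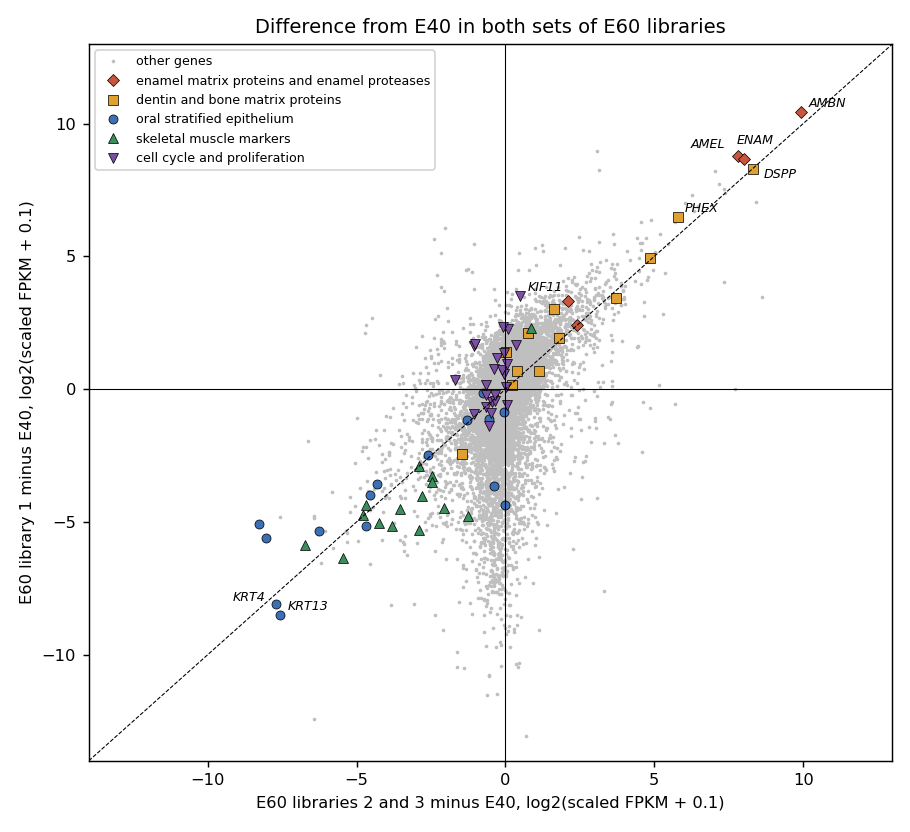
Each point is a gene, placed by the difference of E60 libraries 2 and 3 from E40 (x axis) and of E60 library 1 from E40 (y axis), both on log2(scaled FPKM + 0.1), with the dashed line marking equal differences. AMBN, AMEL, ENAM, DSPP and PHEX lie at the upper right, and KRT13, KRT4 and most muscle genes at the lower left. Some members of these lists lie elsewhere, such as BGLAP at the lower left, MYL1 at the upper right and KRT10 and KRT14 near the vertical axis. Many other genes differ from E40 on the y axis alone.

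Enamel matrix genes had the highest median change of the 17 gene lists. AMBN, AMEL and ENAM encode ameloblastin, amelogenin and enamelin, the secreted proteins of the forming enamel. AMBN stood at 6.07, 6.22 and 2.30 scaled FPKM in the E40 libraries and at 6292, 3635 and 5405 in E60 libraries 1, 2 and 3. This is 4.87 ± 2.22 against 5111 ± 1353 (mean ± SD, n = 3 each), a 1050-fold difference. By limma with Benjamini-Hochberg adjustment the log2 fold change was 10.10 (SE 0.49, adjusted p = 0.00325) over the 6 libraries. It was 9.93 (adjusted p = 0.00227) over the 5 libraries and 10.44 in E60 library 1. It was the largest rise of any named gene, and it rested on 7 to 13 reads in each E40 library.

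AMEL followed, at 10.4, 14.1 and 5.64 scaled FPKM at E40 and 4225, 1650 and 2702 at E60, a log2 fold change of 8.13 (SE 0.51, adjusted p = 0.00635 by limma). ENAM stood at 1.19, 1.17 and 1.28 and at 538, 354 and 329 scaled FPKM, a log2 fold change of 8.24 (SE 0.29, adjusted p = 0.000854 by limma). AMEL differed over the 5 libraries by 7.80 and ENAM by 8.02, against 8.80 and 8.68 in E60 library 1. Low levels of all 3 matrix genes were thus already counted at the cap stage, and no library of one stage came near the other. Genes of the maturation stage had few reads. ODAM, an ameloblast protein of enamel maturation, had 0, 2 and 0 reads at E40 and 40, 3 and 1 at E60, and AMTN, amelotin, had 0, 0 and 3 and then 54, 1 and 1, with overlapping stages for both. Of the 8 genes of the enamel matrix and protease list, 5 passed the filter, and 3 of these rose, none fell and 2 did not pass the test. The median log2 fold change of the 5 was 8.13, against -0.02 over all genes tested.

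Among 15 measured genes that amelogenesis needs outside the matrix, none passed the limits by limma over the 6 libraries (1 higher by limma-voom on the recovered reads, and 7 higher at an unadjusted p under 0.05) and 5 lay at least 2-fold above E40 in every E60 library. SP6 (epiprofin), a zinc finger transcription factor of the dental epithelium, stood at 21.5, 27.4 and 28.2 scaled FPKM and then at 111, 110 and 172. Its log2 fold change was 2.32 (adjusted p = 0.0552 by limma) over the 6 libraries and 2.43 (adjusted p = 0.0299) over the 5. DLX3, a homeobox factor whose mutation causes enamel defects, was at 1.94, 3.44 and 2.88 and then at 16.5, 12.1 and 12.4, a log2 fold change of 2.29 (adjusted p = 0.0771 by limma). ACPT, a testicular acid phosphatase that enamel formation needs, differed by 2.12 on the log2 scale and ITGB6, the beta chain of an epithelial integrin, by 1.41, and both were higher in each E60 library. FAM20A, a pseudokinase that aids phosphorylation of secreted proteins, overlapped between the stages at 10.9, 13.8 and 10.2 and then 9.09, 15.2 and 11.9.

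Of the 12 measured dentin and bone matrix genes, PHEX and DMP1 passed the test, and DSPP stood far higher at E60 without passing it. DSPP, which encodes the main noncollagenous proteins of dentin, had 5, 3 and 0 reads at E40 and 12871, 489 and 693 at E60. In scaled FPKM these were 2.86, 1.35 and 0 and then 238, 291 and 195, a 172-fold difference of the means. The log2 fold change of 8.30 did not pass the limit (SE 1.25, adjusted p = 0.0768 by limma), as the E40 libraries varied from 0 to 5 reads. E60 library 1 and E60 libraries 2 and 3 gave the same difference of 8.30.

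PHEX, an endopeptidase of mineralizing cells whose loss causes hypophosphatemic rickets, rose from 0.788, 0.621 and 0.426 to 61.5, 37.8 and 39.1 scaled FPKM, a log2 fold change of 6.02 (SE 0.37, adjusted p = 0.00635 by limma). It had 2 reads in each E40 library. DMP1, an acidic phosphoprotein of dentin and bone, rose from 0.749, 2.07 and 0.608 to 33.6, 26.5 and 36.9, a log2 fold change of 4.88 (SE 0.50, adjusted p = 0.0272 by limma). PHEX differed over the 5 libraries by 5.79 and DMP1 by 4.85, against 6.47 and 4.95 in E60 library 1. The mineralization phosphatase PHOSPHO1 had 0, 2 and 3 reads at E40 and 272, 9 and 25 at E60. These low-count genes moved the same way in all E60 libraries.

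The fibrillar collagen of dentin and bone was already abundant at the cap stage. COL1A1 stood at 81.4, 102 and 118 scaled FPKM and then at 375, 287 and 422, a 3.60-fold difference (log2 fold change 1.85, adjusted p = 0.103 by limma). COL1A2, the partner chain, stood at 140, 184 and 194 and then at 1375, 531 and 531, with a difference of 1.64 over the 5 libraries and of 3.01 in E60 library 1. SPARC (osteonectin), which binds collagen, was at 337, 316 and 396 and then 566, 664 and 887. SPP1 (osteopontin) was at 38, 42.9 and 41.5 and then 45.8, 47.4 and 47.8, and IBSP (bone sialoprotein) at 7.42, 8.77 and 10.8 and then 14.5, 13.1 and 10.2. Thus SPP1 differed by 0.20 and IBSP by 0.48 on the log2 scale. BGLAP (osteocalcin), a bone matrix protein, lay lower without overlap at 21.8, 3.82 and 3.93 and then 1.18, 2.52 and 2.39 (adjusted p = 0.479 by limma). It had only 9, 2 and 3 reads at E40 and 15, 1 and 2 at E60. Its E40 values ranged from 3.82 to 21.8 scaled FPKM, and no fall is read from it. OMD (osteomodulin) overlapped at 50.4, 46.3 and 32.8 and then 112, 59.1 and 30.9. In all, 12 of the 15 listed genes passed the filter, 2 of them rose, none fell, 6 had the 2-fold gap upward, and the median log2 fold change was 1.53.

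**Figure D2:**
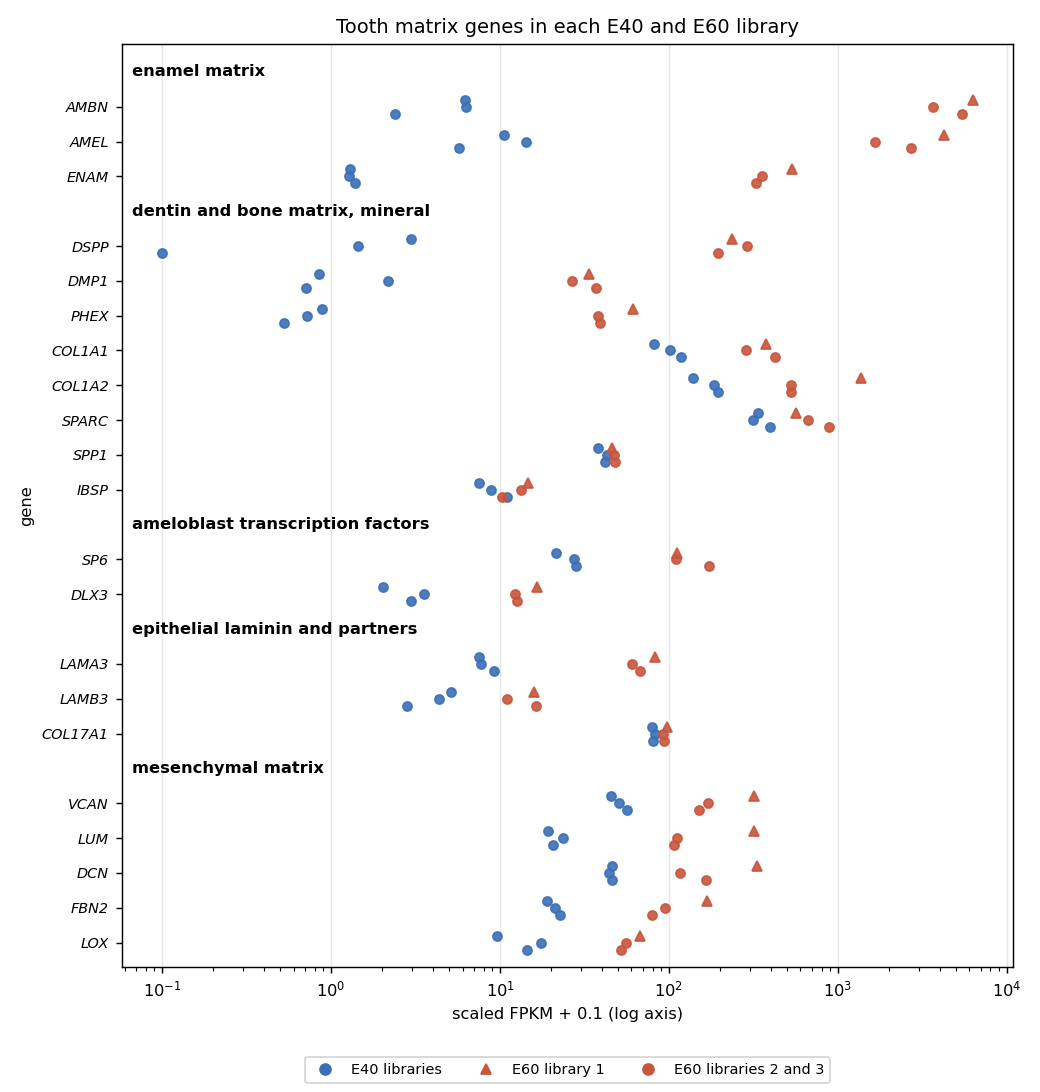
Scaled FPKM + 0.1 (log axis) of tooth matrix genes, with 1 point for each of the 3 E40 libraries and each of the 3 E60 libraries. The E60 points of AMBN, AMEL, ENAM, DSPP, DMP1 and PHEX lie far to the right of the E40 points, while those of SPP1, IBSP and COL17A1 lie close to them.

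Genes of the basement membrane between epithelium and papilla did not move as a group. LAMA3, the alpha chain of an epithelial laminin that anchors ameloblasts too, rose from 7.43, 7.60 and 9.12 to 82.6, 60.6 and 67.1 scaled FPKM. Its log2 fold change was 3.10 (SE 0.26, adjusted p = 0.0157 by limma), with 2.98 over the 5 libraries and 3.35 in E60 library 1, and it was the 1 gene of 24 on the basement membrane list that passed the test. LAMB3, its beta chain partner, stood higher in every E60 library, at 5.01, 4.28 and 2.71 and then 15.7, 10.9 and 16.3, with a log2 fold change of 1.83 (adjusted p = 0.144 by limma). The laminin chain LAMC3 and the linker NID2 also had the gap upward, with differences of 2.17 and 1.58.

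COL4A5 and COL4A6, neighbouring genes for collagen IV chains that form a network of their own in epithelial basement membranes, had the gap downward. COL4A5 was at 12.1, 10.4 and 9.59 and then 4.33, 2.75 and 2.42, and COL4A6 at 2.84, 2.54 and 2.87 and then 1.12, 0.395 and 0.654. The common chains COL4A1 and COL4A2 differed by 0.17 and -0.11 on the log2 scale, and their stages overlapped. COL17A1, a hemidesmosomal collagen, was nearly level at 79.5, 82.9 and 79.9 and then 97.7, 91.5 and 93.2. The integrin chains ITGA6 and ITGB4, which bind that laminin in hemidesmosomes, also overlapped between the stages. The median of the 24 genes was 0.20.

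Genes of the mesenchymal matrix list stood higher at E60 in 9 of 30 cases by the gap and lower in 2. Which cells of the whole germs made them was not measured. None of the 30 passed the limits by limma over the 6 libraries (2 higher by limma-voom, and 15 higher and 5 lower at an unadjusted p under 0.05). Over the 5 without E60 library 1, 3 rose. VCAN (versican), a hyaluronan-binding proteoglycan, stood at 45.6, 50.4 and 56.1 and then at 319, 170 and 150 scaled FPKM. LUM (lumican), which spaces collagen fibrils, stood at 19.1, 23.6 and 20.4 and then at 318, 111 and 107, and FBN2 (fibrillin 2), a microfibril protein, at 19.0, 21.0 and 22.6 and then at 168, 94.1 and 79.2. Over the 5 libraries their log2 fold changes were 1.66, 2.38 and 2.05, with adjusted p of 0.0447, 0.0128 and 0.0230 by limma. E60 library 1 was the highest library for all 3.

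DCN (decorin), LOX (lysyl oxidase, which cross-links collagen), BGN (biglycan) and COL5A3 also had the gap upward. LOX was at 9.54, 17.3 and 14.3 and then 67.0, 55.7 and 51.7, and DCN at 45.9, 44.2 and 46.2 and then 331, 116 and 165. THBS1 (thrombospondin 1) and COL14A1 had the gap downward, at 19.8, 24.3 and 24.5 and then 9.77, 6.86 and 7.09 for THBS1 and 11.0, 13.9 and 13.2 and then 5.18, 3.19 and 2.93 for COL14A1. COL3A1 and FN1 (fibronectin), among the more abundant matrix genes, differed by 0.92 and 1.06 on the log2 scale with no overlap, and TNC (tenascin C) by -0.90. PLOD2, a lysyl hydroxylase that sets the type of collagen cross-link and that was on no list, rose from 6.45, 5.65 and 7.17 to 237, 110 and 110, a log2 fold change of 4.45 (SE 0.38, adjusted p = 0.0181 by limma), with 4.08 over the 5 libraries and 5.19 in E60 library 1.

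Transcription factors of tooth development spread to both sides of their cap stage level. None of 26 passed the limits by limma over the 6 libraries (1 higher and 2 lower by limma-voom on the recovered reads, and 5 and 7 at an unadjusted p under 0.05), 2 had the gap upward (SP6 and DLX3) and 4 downward, and the median log2 fold change was -0.60. SOX2, a stem cell factor of the dental and oral epithelium, was at 14.5, 12.4 and 16.3 scaled FPKM and then at 0.234, 0 and 1.19, or 12, 13 and 25 reads against 6, 0 and 2. LEF1, the nuclear partner of beta-catenin, was at 34.5, 33.2 and 27.7 and then 11.5, 9.06 and 11.1. Their log2 fold changes were -5.36 (adjusted p = 0.112) and -1.59 (adjusted p = 0.0904) by limma. TFAP2B, at -2.08, and TWIST1, a mesenchymal basic helix-loop-helix factor at -1.76, completed the lower group.

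Among other factors that define the tooth germ, MSX1, BARX1 and PAX9 differed from their cap stage level by less than 1 on the log2 scale. MSX1, a homeobox factor of dental mesenchyme, was at 27.4, 35.5 and 38.8 and then 27.5, 27.1 and 33.6. BARX1, which marks molar mesenchyme, differed by -0.44, and PAX9, a paired box factor of dental mesenchyme, by -0.82, both lower with no overlap. For DLX1 and RUNX2 the E60 libraries disagreed. DLX1 was at 60.5, 51.0 and 32.0 at E40, at 3.14 in E60 library 1 and at 51.6 and 31.0 in E60 libraries 2 and 3, and RUNX2, the master factor of bone, was at 41.4, 30.6 and 23.1, at 2.14, and at 33.8 and 11.8.

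Of the signals of the enamel knot and cap stage, 1 of 29 passed the test. DKK1, a secreted Wnt inhibitor, rose from 5.79, 10.3 and 11.7 to 100.1, 85.9 and 86.3 scaled FPKM, a log2 fold change of 3.34 (SE 0.34, adjusted p = 0.0266 by limma), with 3.26 over the 5 libraries and 3.48 in E60 library 1. SHH, made by the enamel knot and later by the inner enamel epithelium, was at 59.4, 41.6 and 60.6 and then at 103, 183 and 221, a difference of 1.60 (adjusted p = 0.211 by limma). It was higher in each E60 library. FGF4, a marker of the enamel knot, had 0, 1 and 2 reads at E40 and 2, 0 and 0 at E60, too few for a comparison. FGF10, a mesenchymal growth factor, was at 45.4, 37.2 and 24.9 and then at 3.90, 19.9 and 14.0. The median over the 29 genes was -0.02. BAMBI, a decoy receptor of the TGF-beta family that was on no list, rose from 18, 14.2 and 17.9 to 183, 184 and 260, a log2 fold change of 3.62 (SE 0.28, adjusted p = 0.0113 by limma), with 3.71 over the 5 libraries and 3.45 in E60 library 1.

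Cell cycle genes gave no stage difference that passed the test, and their level depended on the E60 library. Of 24 measured, none passed by limma or limma-voom (2 lower at an unadjusted p under 0.05) and none had the gap in either direction, with a median of -0.15. The median was 0.47 for the deep E60 library 1 and -0.35 for the shallow E60 libraries. PCNA, the clamp of DNA polymerase, was at 13.4, 18.6 and 17.4 at E40, at 82.6 in E60 library 1 and at 14.5 and 16.4 in E60 libraries 2 and 3. KIF11, a mitotic kinesin, was at 0.969, 1.34 and 1.57, at 15.4, and at 1.77 and 1.91. MCM2, a replication helicase subunit, was lower in each E60 library, at 26.5, 30.3 and 29.6 and then 18.1, 16.3 and 20.8.

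**Figure D3:**
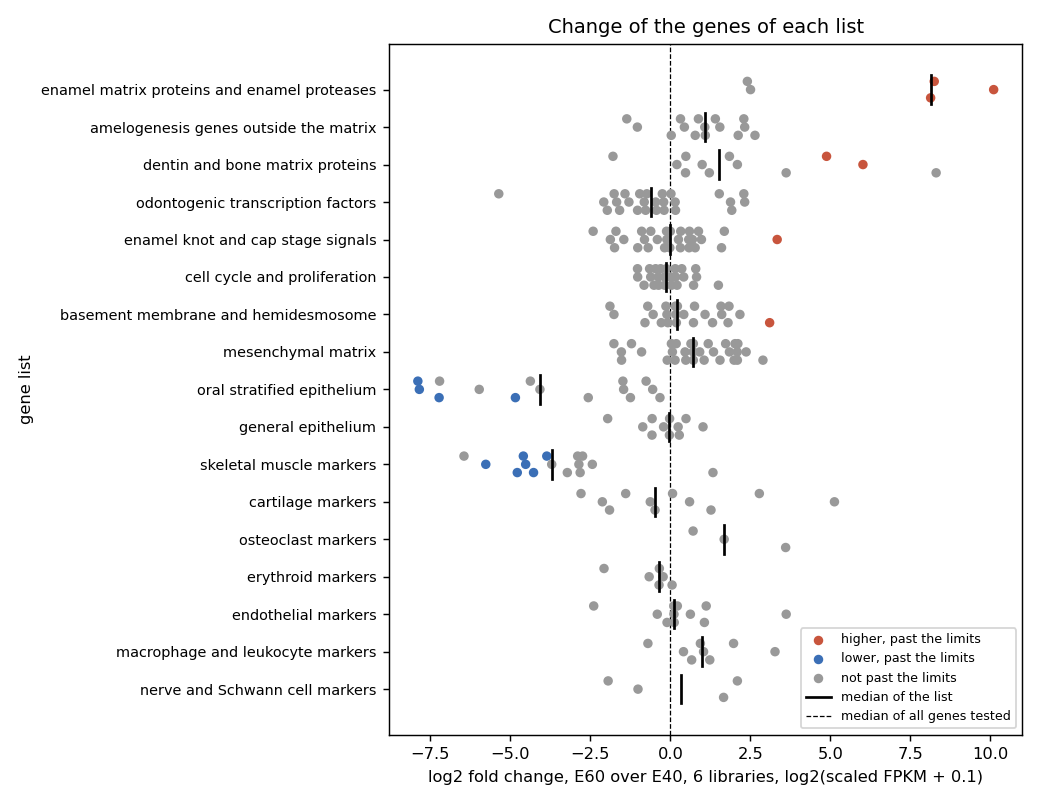
Log2 fold change (E60 over E40, 6 libraries) of each measured gene of 17 lists, with called genes in colour, the median of each list as a bar and the median of all genes tested as a dashed line. The enamel list lies furthest to the right, and the oral epithelium and muscle lists lie to the left of the other lists.

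Of 15 measured genes of stratified oral epithelium, 4 fell and 10 had the gap downward. KRT13 and KRT4 form the keratin pair of the suprabasal cells of nonkeratinized mucosa. KRT13 stood at 1904, 1851 and 1955 scaled FPKM at E40 and at 5.10, 9.62 and 10.2 at E60, or 1903 ± 52.1 against 8.29 ± 2.78 (mean ± SD, n = 3 each). KRT4 stood at 385, 436 and 437 and then at 1.42, 2.08 and 1.73. The means were 230-fold and 240-fold higher at E40. Their log2 fold changes were -7.89 (SE 0.35, adjusted p = 0.0028) and -7.84 (SE 0.25, adjusted p = 0.000854) by limma. They were -7.57 and -7.71 over the 5 libraries, against -8.52 and -8.10 in E60 library 1. Fewer cells of a type and less RNA per cell cannot be told apart in these whole germs.

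IVL (involucrin), a precursor of the cornified envelope, had 28, 36 and 57 reads at E40 and 15, 0 and 0 at E60 and fell (log2 fold change -7.22, adjusted p = 0.0289 by limma). KRT15, a keratin of basal cells, fell from 601, 587 and 623 to 16.6, 14.6 and 37.8 scaled FPKM (log2 fold change -4.84, adjusted p = 0.0186 by limma). CRNN (cornulin), SPRR1A, SBSN (suprabasin), TGM1 (transglutaminase 1), KRTDAP and KRT6A had the gap downward without passing the test over the 6 libraries, and SPRR1A fell over the 5. KRTDAP had only 2 reads in each E40 library and 1, 0 and 0 at E60. KRT10, a suprabasal keratin of cornifying epithelium, overlapped between the stages at 41.8, 34.5 and 24.2 and then 1.51, 56.0 and 18.7, with a difference of -0.02 over the 5 libraries, and so did CNFN (cornifelin) with -0.40. The general basal keratins also did not pass. KRT5 was at 2750, 2897 and 3036 and then 1318, 1431 and 2652, and KRT14 at 778, 768 and 829 and then 432, 549 and 1062, so that the KRT14 stages overlapped. None of the 15 rose, and the median was -4.07. On the list of general epithelial genes, such as EPCAM and DSP (desmoplakin), none of 11 passed by limma or limma-voom (1 higher and 2 lower at an unadjusted p under 0.05) and the median was -0.03. That median was -0.39 over the 5 libraries and -0.06 in E60 library 1.

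Of 15 measured skeletal muscle genes, 6 fell and 11 had the gap downward. MYLPF, the fast regulatory light chain, was at 109, 91.6 and 86.6 scaled FPKM and then at 4.50, 3.67 and 3.47. TNNC2, fast troponin C, was at 76.9, 94.8 and 118 and then at 2.80, 5.01 and 4.74, and TNNI1, slow troponin I, at 40.2, 37.3 and 50.5 and then at 0.420, 1.23 and 0.583. Their log2 fold changes were -4.59, -4.52 and -5.77, with adjusted p of 0.00546, 0.0113 and 0.0113 by limma. Over the 5 libraries they were -4.70, -4.26 and -5.47, against -4.38, -5.04 and -6.35 in E60 library 1. These genes of fast and slow fibres both fell, and no library of E60 reached their E40 range.

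ACTC1 (cardiac alpha actin, also made in fetal muscle), TNNT1 (slow troponin T) and MLC2V (an older symbol of MYL2, the slow regulatory light chain) also fell. The summed level of the 15 genes was between 430 and 512 scaled FPKM in the E40 libraries and between 57.1 and 80.9 in the E60 libraries. MYL1, another light chain, went against the rest at 14.9, 9.63 and 16.1 and then 65.7, 19.8 and 28.8, and it made up most of the E60 sum of library 1. MYOG (myogenin), a myogenic factor, was at 18.9, 14.9 and 20.4 at E40 and at 0.555, 10.7 and 5.08 at E60. In all, 10 of the 22 genes that fell over the 6 libraries were on the oral or muscle list. These lists held 15 genes each of the 11089 tested, and they were chosen with earlier results of these data known. How much oral epithelium or muscle each dissected germ held was not measured, and a change in it cannot be told apart from a change in the germ.

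**Figure D4:**
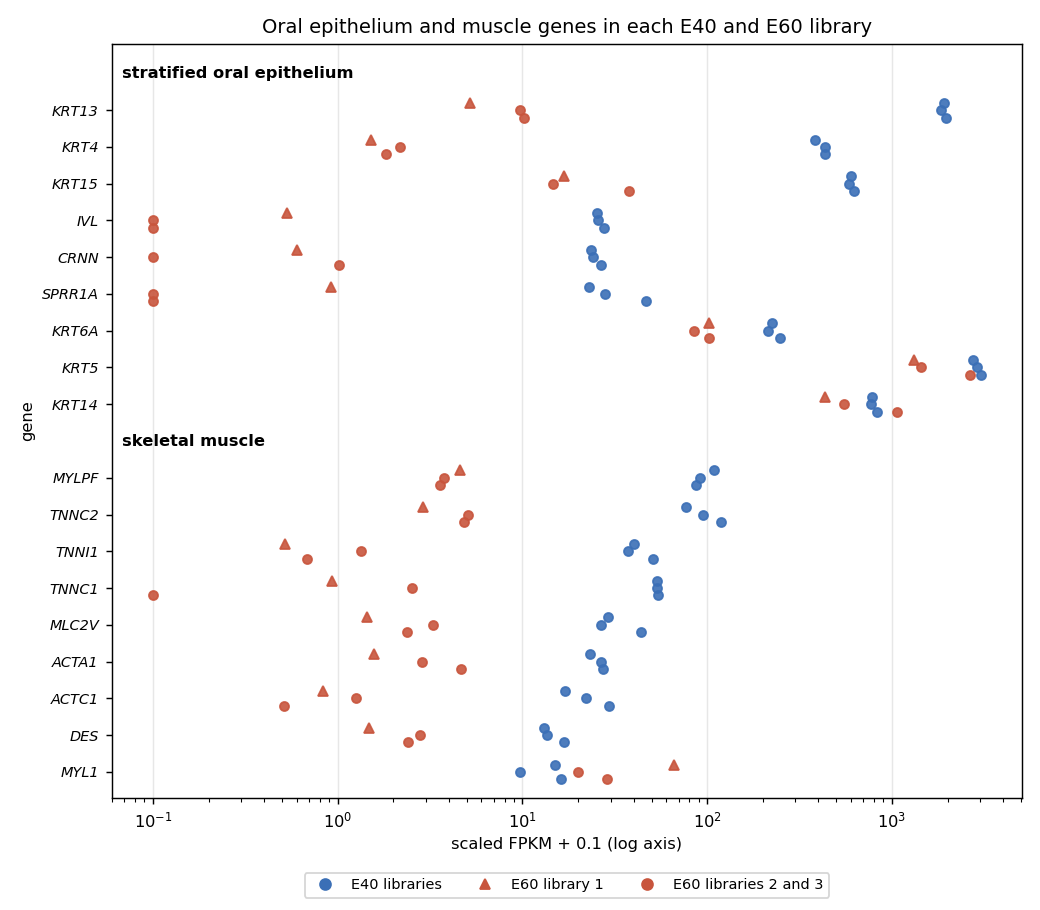
Scaled FPKM + 0.1 (log axis) of oral epithelium and skeletal muscle genes, with 1 point for each of the 3 E40 libraries and each of the 3 E60 libraries. All genes but KRT5, KRT14 and MYL1 lie at least 2-fold lower in every E60 library, and points at 0.1 are libraries with 0 reads.

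Markers of other cells that a dissected germ can hold gave no call over the 6 libraries. None of the 11 cartilage, 11 endothelial, 8 macrophage and leukocyte, 6 erythroid, 4 nerve and 3 osteoclast genes measured passed by limma or limma-voom. At an unadjusted p under 0.05 by limma, 3 cartilage genes were higher and 1 was lower. At that limit 2 endothelial, 2 macrophage and leukocyte, 1 nerve, 1 osteoclast and 0 erythroid genes were higher, and none of these lists had a lower gene. Of all genes tested, 11.7% reached that limit in either direction. The share was above this in every list but the erythroid one, on lists of only 3 to 11 genes. HAPLN1, a link protein of hyaluronan and proteoglycans that cartilage also makes, stood at 1.90, 2.06 and 5.13 and then at 223, 59.5 and 72.2 scaled FPKM, and rose over the 5 libraries (log2 fold change 4.54, adjusted p = 0.0230 by limma). Of the other cartilage genes, COL11A2 had the gap upward at 0.359, 0.991 and 0.485 and then 4.67, 4.30 and 4.43, COL9A2 overlapped within 12.5 to 20.5, and the defining COL2A1 and ACAN lay at 1.17 to 3.42 and 0.635 to 1.32 in all libraries. The cartilage genes summed to between 48.6 and 63.9 at E40 and between 127 and 261 at E60, with a median log2 fold change of -0.48. HAPLN1 alone gave 223, 59.5 and 72.2 of the sums of 261, 127 and 128 in E60 libraries 1, 2 and 3. The median of the endothelial genes was 0.12. The macrophage and leukocyte genes summed to between 10.5 and 12.6 at E40 and between 21.3 and 27.7 at E60, and LAPTM5, a lysosomal protein of leukocytes, had the gap upward. Their part in the matrix results was not tested.

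Several genes outside the lists rose from almost no reads at E40. SCIN (scinderin, which severs actin filaments) had 0 reads in each E40 library and 1648, 35 and 72 at E60, which is at least 17.9-fold higher against a floor of 3 reads in each E40 library. SLC15A1, a peptide transporter, had 0 reads at E40 and 853, 20 and 41 at E60, at least 9.82-fold higher. PID1, an adaptor protein, had 0 reads and then 66, 1 and 2, below the floor in both shallow E60 libraries. These floors cover counting error only. SLC15A1 and PID1 were not called over the 5 libraries (adjusted p = 0.0546 and 0.0632 by limma), while SCIN was.

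CKMT1B, a mitochondrial creatine kinase, rose from 0.697, 1.10 and 0.377 to 79.8, 45.0 and 85.9 scaled FPKM. VWDE, a secreted protein with von Willebrand factor D and EGF domains, rose from 1.12, 0.882 and 2.06 to 113, 36.8 and 44.8, and SATB1, a chromatin organizer, from 0.928, 1.61 and 1.71 to 34.2, 18.6 and 15.7. A2M (alpha-2-macroglobulin, a protease inhibitor) rose by 5.89 on the log2 scale over the 6 libraries and was not called over the 5 (adjusted p = 0.0577 by limma). TESC (tescalcin, a calcium-binding protein) rose with a log2 fold change of 4.54, SERPINA1 (alpha-1-antitrypsin) with 3.87 and PAPLN (papilin, a matrix protein) with 2.69. Over the 5 libraries CPE (carboxypeptidase E), EDIL3 (an integrin ligand of the matrix), ENTPD3 (an ectonucleotidase) and ITGA4 (integrin alpha 4) rose too, with log2 fold changes between 2.73 and 2.96. Each of these genes had the gap upward over all 6 libraries.

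Genes outside the lists that fell included others known from stratified epithelium and muscle. A2ML1, a protease inhibitor of stratified epithelium, fell from 41.0, 39.4 and 43.3 to 0.551, 0.934 and 0.442 scaled FPKM (log2 fold change -5.85, adjusted p = 0.00635 by limma). The protease TMPRSS11A and the serpin SERPINB11 fell by 5.89 and 4.39 on the log2 scale. Among muscle genes, the row named MYHC fell by 5.20, MYL3 (a slow light chain) by 5.91, MYBPC1 (slow myosin-binding protein C) by 4.05 and KLHL41 (a sarcomere-associated kelch protein) by 3.10. MYHC could share reads with other myosin heavy chain genes, so that its value is uncertain.

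NKX2-3, a homeobox factor of pharyngeal and oral epithelium, fell from 12.9, 16.2 and 20.0 to 0.551, 0.612 and 1.16, and GTSF1L had 3, 4 and 6 reads and then 1, 0 and 0. Over the 5 libraries SCEL (sciellin, of the cornified envelope), MATN2 (matrilin 2), MSLN (mesothelin), CALY (calcyon) and the muscle actin ACTA1 fell as well. MATN2 had at most 5 reads in any E40 library and 18 in E60 library 1. Leaving out E60 library 1 gave 3 calls whose sign was opposite in that library. Of these, ABI3, an adaptor of actin regulation, was at 4.46, 7.03 and 5.17 at E40, at 1.59 in E60 library 1 and at 85.6 and 60.3 in E60 libraries 2 and 3. OTUD7A, a deubiquitinase, was at 2.10, 2.32 and 2.27, at 0.911, and at 24.1 and 14.7. ABI3 and OTUD7A were named after their values were seen.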

How the data were processed

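Total RNA of whole Dm3 germs was depleted of rRNA and sequenced as directional paired-end libraries. The authors mapped the reads with TopHat to a pig genome (Sscrofa 10.2 by the submitters' processing notes) and deposited FPKM values for each row, with no scaling between libraries stated. Within a row, values were multiples of 1 step, which gave back whole reads (100.0% of values within 0.002 of a whole number) for all 28963 of 34580 rows above 0. Recovered depth was 938527 to 1760356 reads in 5 libraries and 16124836 in E60 library 1, so that low genes were counted less precisely in the former. Values were scaled by size factors (median ratios over 10006 genes), between 0.600 and 1.65.

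Log2(scaled FPKM + 0.1) of the 18974 rows reaching FPKM 1 in 2 or more of the 6 libraries, LOC rows included, was fitted by limma 3.58.1 (R 4.3.3, trended variance) and p-values were adjusted over these rows by Benjamini-Hochberg. Calls needed an adjusted p below 0.05 and a difference of 1 or more. The deposited unit being FPKM, counts were not the main input, and limma-voom on the recovered reads was an alternative. Fits were tested on simulated data. Replicate error is the SD over 3 libraries.

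Named by rule were the 15 largest changes in each direction over 6 libraries, and 10 more over 5, among called genes that averaged 5 scaled FPKM or more where higher, whose stages did not overlap and whose symbol was no LOC or small RNA symbol, plus genes of 17 lists (354 genes, some under older symbols) of tooth, matrix and other cell types. Members, lists and tests were chosen with earlier results of these data known, and the gap was added after values were seen. List genes under LOC symbols were not used here. Genes such as CDH1, ALPL, DLX5 and LAMA1 are listed at 0 in all 6 libraries, so that an absent read is not read as an absent transcript. Alternatives were other pseudocounts, filters, scalings and p adjustments, no trend, all 9 libraries, a replicate block and leaving out each library. Python 3.11.15, pandas 2.3.3, numpy 2.4.6 and matplotlib 3.10.9 were used otherwise. A floor of 3 reads was used for genes at 0. Alignments, lengths and coordinates were not analysed here, and results for some genes are not reported here.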

Additional observations from a re-analysis of the deposited data

How the results depend on the processing

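There were 25 higher and 22 lower calls over 6 libraries and 39 and 33 over 5. These counts depended on the scaling and on how the spread was estimated. All 47 calls over 6 libraries kept their direction under every alternative. The alternatives reuse the same libraries, and all 47 already differed the same way in both sets of E60 libraries, so this is no separate support. Of the 47, between 1 (replicate number as a block) and 47 (pseudocount of 1) stayed called, with 17 without scaling. Over 6 libraries the calls were 56 and 42 with a pseudocount of 1, 53 and 49 without a variance trend, 9 and 8 without scaling and 269 and 166 in a fit of all 9 libraries. Lower calls were 14 with a pseudocount of 0.01, 12 without a filter on low values and 63 by limma-voom on the recovered reads. Over 5 libraries they were 82 and 51, 60 and 58, 31 and 75, and 283 and 218 in the same order (the last fit without E60 library 1), 199 and 102 by limma-voom, and 15 lower without a filter. Leaving out 1 library gave 1 to 39 higher and 2 to 33 lower calls over 6, and 0 to 2 and 0 to 3 over 5. Genes with the gap, 233 and 161, became 153 and 102 with a pseudocount of 1, 123 and 260 without scaling, and 284 to 337 and 199 to 479 without 1 library, the last without E60 library 2. The cause was not tested. With the replicate number as a block, 0 and 1 calls were made over 6 libraries and 1 and 3 over 5. Same-numbered libraries did not deviate together (correlations of -0.195, 0.005 and -0.121). With 3 libraries per stage and E60 library 1 standing apart, these correlations cannot exclude that the numbers pair the libraries.

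Of the genes named, 5 that were not called changed sign. The log2 fold change of FAM20A was -0.10 by limma-voom, -0.047 without scaling, -0.011 with upper-quartile scaling and -0.15 to 0.21 with 1 library left out. The log2 fold change of COL4A1 ranged from -0.0037 to 0.32, the log2 fold change of ITGB4 from -0.42 to 0.022 and the log2 fold change of PCNA from -0.080 to 1.17 with 1 library left out. The log2 fold change of COL9A2 was -0.0054 without scaling and -0.13 to 0.25 with 1 library left out. Depth limits the low end: AMBN, ENAM, DSPP and PHEX had between 0 and 13 reads in each E40 library.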

Other observations

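Among genes with the 2-fold gap between every E60 and every E40 library that are on no list and were not already named by the rule for the largest called changes, the 10 highest by mean level in each direction were taken after values were seen, so that how many of them were called says nothing about such genes. GJA1 (connexin 43), the gap junction protein whose mutation causes oculodentodigital dysplasia with enamel defects, stood at 308, 330 and 352 scaled FPKM at E40 and at 1901, 994 and 1219 at E60, with an adjusted p of 0.159 by limma. PTF-BETA, by RefSeq a synonym of PTN (pleiotrophin, a heparin-binding growth factor), stood at 131, 153 and 167 and then at 598, 405 and 612. MMP25, a membrane-anchored metalloproteinase, had 6, 0 and 8 reads and then 18839, 249 and 573, a log2 fold change of 7.44 (adjusted p = 0.0957 by limma). NUDT4 (a hydrolase of inositol pyrophosphates), ANXA8 (annexin A8), SGK1 (a serum-induced kinase), WFDC1, GALNT1 (which starts O-glycans), GPRC5B and RCAN1 (an inhibitor of calcineurin) completed the higher genes, with log2 fold changes between 1.65 and 2.49.

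Among the lower genes, SLC20A2, a sodium-dependent phosphate transporter, stood at 140, 134 and 94.9 and then at 34.6, 40.9 and 45.2 scaled FPKM. TUBB2B, a neuronal beta tubulin, stood at 106, 90.2 and 91.9 and then at 17.1, 17.6 and 30.7. UHRF1, which maintains DNA methylation in dividing cells, differed by -1.45 on the log2 scale, MEIS1, a homeobox factor, by -2.80, and LRIG3 and MEX3A by -1.79 and -1.38. TNNT2 and MYL4, troponin and myosin light chain genes of embryonic muscle, differed by -6.31 and -5.82. RTL1, a retrotransposon-derived imprinted gene, stood at 65.5, 58.5 and 39.4, at 0 in E60 library 1 and at 17.4 and 8.61 in E60 libraries 2 and 3, and the row named IFN-OMEGA-2 stood at 48.0, 34.4 and 29.5, at 0, and at 11.4 and 4.30.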
